A study of Danio rerio with 46 samples.

Results

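Sex steroids are made from cholesterol by a short chain of enzymes. Their genes were followed here through juvenile trunks, testes and ovaries of zebrafish that had or had not been warmed during the weeks of sex differentiation. The set was taken by name and held star, cyp11a1, cyp17a1, cyp11c1, cyp19a1a and cyp19a1b. All 6 were found by name among the 31475 rows of the expression table. Fish were held at 36 °C (heat-exposed) or 28 °C (control) from 18 to 32 days post fertilization (dpf). Both groups then lived at 28 °C until sampling, so every sample was taken after the warm period had ended. Whole trunks of juveniles of unknown sex were taken at 37 dpf, as 8 control and 10 heat-exposed samples. Adult gonads were taken at 90 dpf, as 10 control testes, 10 heat-exposed testes, 4 control ovaries and 4 heat-exposed ovaries. The labels name no strain and no transgene. RNA was amplified and hybridized to single-colour arrays, 46 in all, which the design text calls biological replicates.

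The protein encoded by star carries cholesterol into the mitochondrion, where Cyp11a1 cuts its side chain to give pregnenolone. Zebrafish eggs are also known to carry cyp11a1 transcripts. Cyp17a1 then adds the 17-hydroxyl group and cleaves the steroid to an androgen precursor. Cyp11c1, the 11-hydroxylase, leads to 11-ketotestosterone, the main androgen of male fish, and in the interrenal gland to cortisol. Aromatase turns androgens into estrogens and has separate genes in teleosts, cyp19a1a of the ovarian follicle and cyp19a1b of radial glia in the brain. In zebrafish the juvenile gonad passes through a stage with oocytes before it becomes a testis or an ovary, and estrogen made by gonadal aromatase supports the ovarian course.

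Values are log2 signals as deposited, so a difference of 1 is a doubling. Levels were compared only within a gene and within an age, because probes differ in brightness and upper quartiles were 10.64 to 10.72 on adult arrays and 10.90 to 10.95 on trunk arrays. Lower quartiles were 6.04 to 6.44 on gonad arrays and 6.53 to 6.70 on trunk arrays. No detection calls were given in the sources used here, and signals near or under that quartile could not be told from background. This applies to cyp19a1a in testes and most trunks, to cyp19a1b in most gonads, to cyp11c1 in control ovaries and many trunks, and to cyp11a1 and cyp17a1 in heat-exposed trunks. A fold against such a signal is uncertain. In whole tissue, fewer cells of a type and less RNA per cell cannot be told apart. The row cyp11a1 matches the gene now called cyp11a1.1. Its close copy cyp11a1.2 is no row name here, and both may have hybridized to the same probes.

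The labelled tissues were checked against marker genes. The mean signal of 17 oocyte markers was 13.36 to 13.83 in control ovaries and 8.36 to 10.28 in control testes. The mean of 14 spermatogenic markers was 12.28 to 12.66 in control testes and 8.78 to 9.44 in control ovaries. A list of 12 ovarian somatic markers did not follow the labels. Its mean was 7.65 to 8.003 in control testes and 6.82 to 7.13 in control ovaries. Of these 12 genes, 5 were higher and 2 lower in control testis at a limma adjusted p under 0.05. Heat-exposed ovaries 2 and 4 stood apart. Their spermatogenic means were 12.21 and 12.33, close to testes, while their oocyte means were 12.45 and 12.92. The other heat-exposed ovaries had spermatogenic means of 9.30 and 9.36. Among trunks, the oocyte mean was 12.86 or higher in controls 1, 3, 5, 7 and 8, and 11.49, 8.89 and 8.85 in controls 6, 4 and 2. It ran from 6.32 to 9.24 in heat-exposed trunks. For the 6 genes, calls that rest on heat-exposed ovaries 2 and 4 are given with and without them. That pair was left out after the data were seen, by signals that move with several of the 6 genes. Fits without it are thus no independent result. Among trunks, no fit left out controls 1, 3, 5, 7 and 8 together. Most results of other genes are given with all arrays only.

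**Figure D1:**
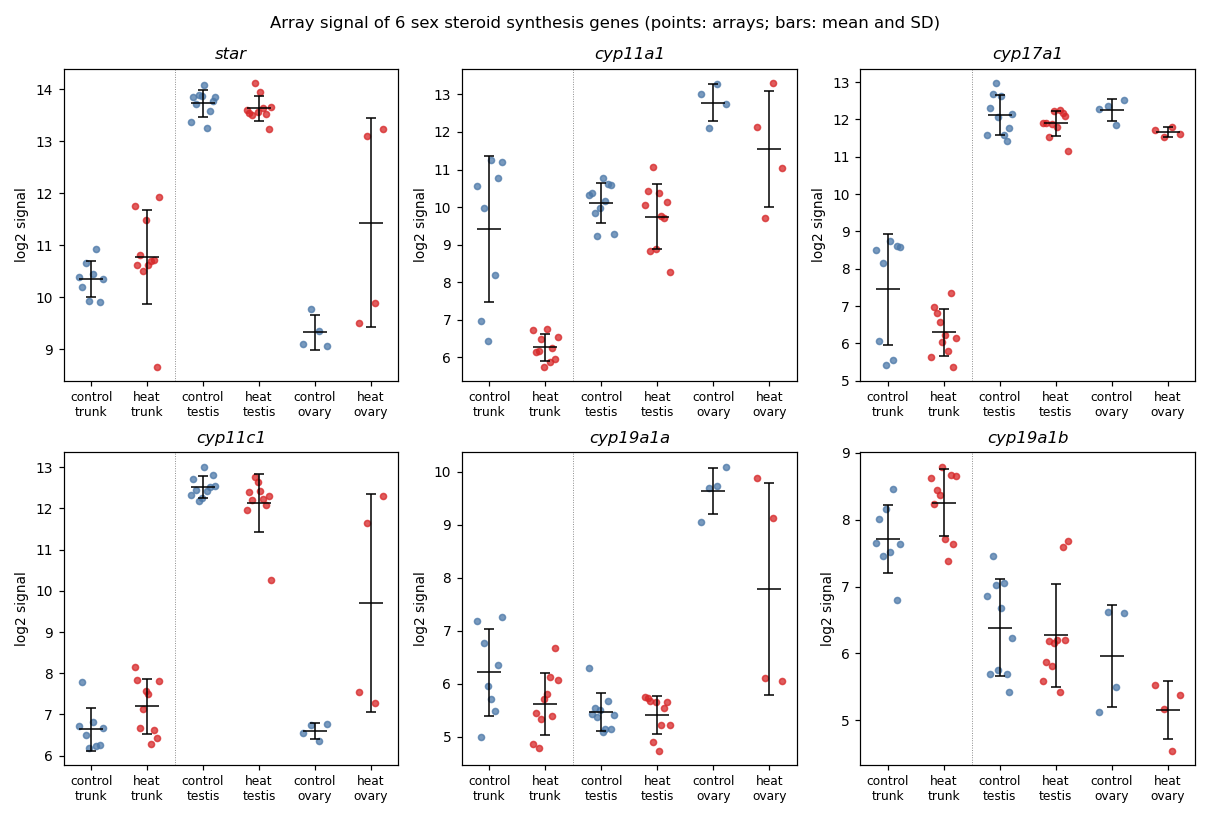
Log2 array signal of each of the 6 genes (vertical axes, one scale per gene) in the 6 groups, with 1 point per array and bars for the mean and SD. Control trunks split widely for cyp11a1 and cyp17a1, and heat-exposed ovaries split into pairs for star, cyp11c1 and cyp19a1a.

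The adult control gonads show how the chain differs between the sexes. Testes had far more star and cyp11c1 signal than ovaries, ovaries had more cyp11a1 and cyp19a1a, and no difference in cyp17a1 or cyp19a1b was detected. Thus 2 of the 6 genes were higher and 2 lower in control testis by limma at a Benjamini-Hochberg adjusted p under 0.05. Over all rows, 28.3% were higher and 29.6% lower, so a call is common in this comparison and the sizes tell more than the count. The median difference, testis minus ovary, was 0.14 on the log2 scale over the 6 genes and 0.01 over all rows.

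For star, the cholesterol carrier, control testes lay between 13.25 and 14.08 with a median of 13.81. The 4 control ovaries read 9.09, 9.78, 9.36 and 9.07. Every testis lay above every ovary, and the means differed by 4.40 ± 0.43 (SE), or 21.1-fold, with a limma adjusted p of 3.21e-09. This SE, like the others of this comparison, comes from a spread pooled over all gonad groups. The SD of star was 0.25 in control testes, 0.33 in control ovaries and 2.01 in heat-exposed ovaries. The SE is thus no measure of the control spread alone. The next enzyme ran the other way. Side-chain cleavage by cyp11a1 had signals of 9.22 to 10.77 (median 10.25) in control testes and of 13.0045, 12.12, 13.28 and 12.73 in control ovaries. The ranges were separate, with ovaries 6.38-fold higher (log2 difference -2.67 ± 0.48, limma adjusted p = 2.62e-05). Thus the carrier and the enzyme it feeds differed between the sexes in opposite directions. The share of all rows that separate control testes from control ovaries was not counted, so separation alone sets neither gene apart.

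Signals of cyp17a1, which both androgen and estrogen synthesis need, ran from 11.42 to 12.98 in control testes. Control ovaries had 12.28, 12.36, 11.86 and 12.53, all inside the range of the testes. The difference was -0.14 with a 95% interval from -0.64 to 0.37 (limma adjusted p = 0.653), and a gap as large as those of the other 3 gonadal enzymes lies outside that interval. The second 17-hydroxylase gene of zebrafish, cyp17a2, also showed no detectable difference between the sexes, at 0.07 (limma adjusted p = 0.827).

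The steps that divide androgens from estrogens also differed between the sexes. For cyp11c1, control testes lay between 12.17 and 13.01 (median 12.48), and the control ovaries read 6.54, 6.74, 6.35 and 6.76. The gap of 5.92 ± 0.59 is 60.7-fold (limma adjusted p = 4.19e-09) and ranked 267 from the top of 31475 rows. For cyp19a1a, the ovarian aromatase, control ovaries read 9.05, 9.70, 9.73 and 10.10, whereas testes lay between 5.08 and 6.30 (median 5.42), near or under the lower quartile of their arrays. Ovaries were 18.1-fold higher (log2 difference -4.18 ± 0.45, limma adjusted p = 1.37e-08). Brain aromatase, cyp19a1b, ran from 5.42 to 7.46 in control testes and read 5.12, 6.62, 5.50 and 6.61 in control ovaries. These ranges overlapped (difference 0.42, interval -0.42 to 1.27, limma adjusted p = 0.391), with much of the signal near background.

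**Figure D2:**
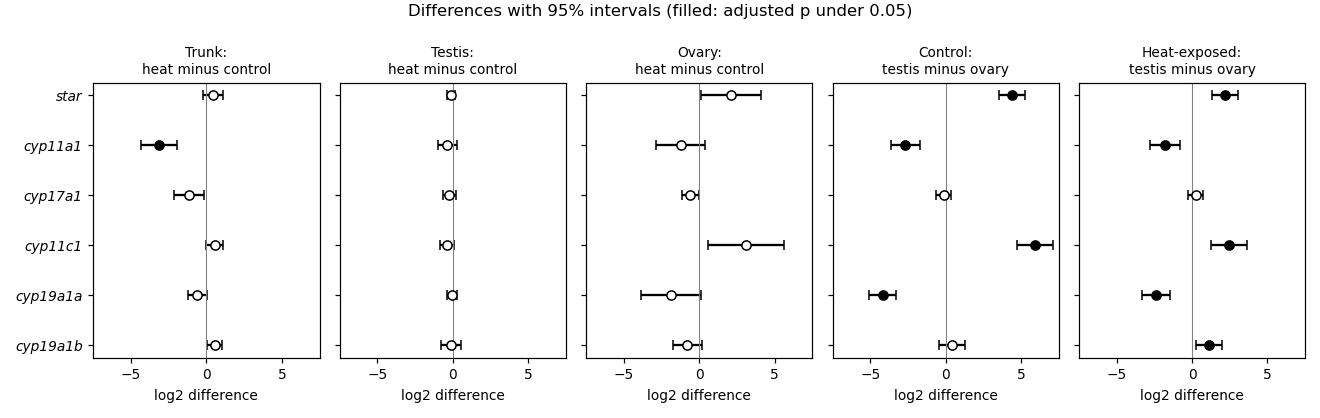
Log2 difference of each gene (points, with 95% intervals) in the 3 heat comparisons and the comparisons of testis with ovary, on one horizontal scale, with filled points for a limma adjusted p under 0.05. Filled points for heat are limited to cyp11a1 in trunks, while 4 genes differ between control testis and control ovary and 5 between the heat-exposed gonads.

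Other genes of the pathway, from lists assembled with earlier results known, show the same gonads in more detail. Of 26 further steroid enzymes measured, 9 were higher in control testis, 6 lower and 11 did not pass, with a median of 0.41. Over all rows 28.3% were higher and 29.6% lower, so these counts lie near the background. The largest gap was in hsd3b1, whose enzyme makes progesterone from pregnenolone and which was lower in testis by a log2 difference of -6.04 (limma adjusted p = 1.77e-11). On average its testis signal lay near the lower quartile of the arrays, so the size of this gap is uncertain. The other leading genes were higher in testis. They were hsd11b2, which oxidizes 11-hydroxylated steroids and so completes 11-ketotestosterone, at 3.93 (limma adjusted p = 7.91e-09), and the sulfotransferase genes sult2st1 at 3.39 and sult2st2 at 2.22. Thus hsd11b2 and cyp11c1, successive steps to the fish androgen, were both higher in testis. By contrast hsd3b1 and cyp11a1, successive steps early in the chain, were both higher in ovary.

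Of 23 genes of cholesterol supply and electron transfer, 6 were higher and 13 lower in control testis, with a median of -0.80. The largest difference was in scarb1, a receptor that takes up cholesterol from lipoproteins, at -3.46 (limma adjusted p = 1.26e-12). Next came cyb5b at -2.78, stard10 at -2.68 and stard3 at -2.25, the last a cholesterol-binding relative of star in late endosomes. Among 29 genes of gonadotropin signalling and steroidogenic control, 7 were higher and 5 lower, smaller shares than the 28.3% and 29.6% of all rows. These included crem, a transcription factor active in spermatids, at 8.31, nr4a1 at -2.85, the granulosa cell factor foxl2 at -2.29 and the follicle-stimulating hormone receptor fshr at 2.21.

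In juvenile trunks, heat exposure was followed by lower cyp11a1, and no other gene of the set passed the test. Thus 0 of 6 genes were higher and 1 was lower, against 8.59% and 5.96% of all rows, and with 6 genes a single call does not set the group apart. The median difference, heat-exposed minus control, was -0.08 over the 6 genes and 0.04 over all rows. The control trunks read 10.57, 6.97, 9.97, 6.43, 11.26, 8.18, 10.77 and 11.21 for cyp11a1 in replicate order. Heat-exposed trunks lay between 5.75 and 6.75, with a median of 6.20. All but control 4 lay above every heat-exposed trunk. The group means were 9.42 ± 1.95 (SD, n = 8) and 6.26 ± 0.35 (SD, n = 10). The fall was 8.93-fold, with a log2 difference of -3.16, a 95% interval from -4.37 to -1.95 and a limma adjusted p of 0.00163. The difference ranked 264 from the lowest of all rows.

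The next step of the chain showed the same split among controls. For cyp17a1 the control trunks read 8.50, 6.06, 8.16, 5.43, 8.75, 5.55, 8.61 and 8.58. Heat-exposed trunks ran from 5.38 to 7.36 with a median of 6.19. Controls 1, 3, 5, 7 and 8 lay above all heat-exposed trunks, while controls 2, 4 and 6 lay among them. The difference of -1.16 had an interval from -2.17 to -0.15 and a limma adjusted p of 0.117, so it did not pass. It passed when control 4 or control 6 alone was left out (limma adjusted p = 0.0399 and 0.0463).

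Oocyte markers divided the control trunks in much the same way. Controls 1, 3, 5, 7 and 8, with oocyte means from 12.86 to 13.46, had cyp11a1 signals of 9.97 or more and cyp17a1 signals of 8.16 or more. Control 6, with an oocyte mean of 11.49, had 8.18 for cyp11a1 and 5.55 for cyp17a1. The lowest oocyte means among controls, 8.85 and 8.89 in controls 2 and 4, went with cyp11a1 at 6.97 and 6.43. All 17 oocyte markers measured were lower in heat-exposed trunks, with a median difference of -5.37. The part of oocyte content in the fall of cyp11a1 was not tested. The call held in all 18 fits that left out 1 trunk (differences from -3.59 to -2.89). It also held without heat-exposed trunks 1, 2 and 10, the 3 with the highest oocyte means of their group (log2 difference -3.25, limma adjusted p = 0.00918). Leaving those 3 out widens the oocyte gap to controls, so that fit is no test of oocyte content.

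**Figure D3:**
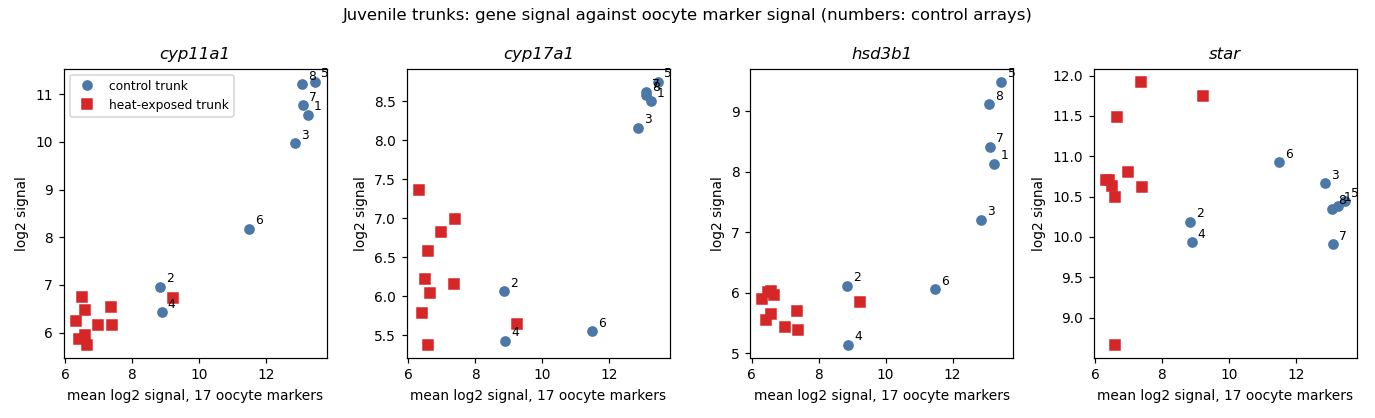
Log2 signal of cyp11a1, cyp17a1, hsd3b1 and star (vertical axes) against the mean log2 signal of 17 oocyte markers (horizontal axes) in 8 control trunks (numbered circles) and 10 heat-exposed trunks (squares). For the first 3 genes, controls 1, 3, 5, 7 and 8 sit at the upper right, whereas star, at 9.91 to 10.92 in controls, follows no such split.

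With all arrays, the first and last steps of the chain did not pass the test in trunks. Whether their differences were unlike that of cyp11a1 was not tested. Signals of star ran from 9.91 to 10.92 (median 10.37) in control trunks and from 8.67 to 11.92 (median 10.71) in heat-exposed trunks. The ranges overlapped (difference 0.43, interval -0.24 to 1.099, limma adjusted p = 0.407). Heat-exposed trunk 9, at 8.67, lay far under the rest of its group, whose next value was 10.50, and without it the difference was 0.66 with a limma adjusted p of 0.0482. The row for mrap, the accessory protein of the corticotropin receptor, had its lowest heat-exposed value, 8.80, in the same trunk. Of 14256 named rows, mrap was the most correlated with star over these trunks (r = 0.87). Its low value there is thus no independent result.

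For cyp11c1 the control trunks lay between 6.18 and 7.78 and the heat-exposed between 6.27 and 8.16. Most of these values were within about 1 log2 unit of the lower quartile, and the difference of 0.56 did not pass (interval -0.02 to 1.13, limma adjusted p = 0.186). Ovarian aromatase, cyp19a1a, read 7.18, 5.005, 6.77, 5.96, 5.71, 5.48, 6.35 and 7.26 in control trunks and ran from 4.79 to 6.67 in heat-exposed ones. Only controls 1, 3 and 8 lay above every heat-exposed trunk, and the difference of -0.59 did not pass (interval -1.25 to 0.06, limma adjusted p = 0.217).

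Brain aromatase lay above the lower quartile of the arrays in every trunk, though several controls lay close to it. Signals of cyp19a1b ran from 6.80 to 8.47 (median 7.65) in controls and from 7.38 to 8.79 (median 8.41) in heat-exposed trunks, with wide overlap. The difference of 0.54 had an interval from 0.06 to 1.02 and a limma adjusted p of 0.123. Of 16 neural and radial glia markers, heat-exposed trunks had 10 higher and 1 lower, against 8.59% and 5.96% of all rows, and their mean signal was 10.999 to 11.76 in controls and 11.54 to 12.71 after heat. That list mixes neuronal and glial genes. Among the glial ones, gfap (0.19, limma adjusted p = 0.447) and glula (0.08, limma adjusted p = 0.862) did not pass. Small rises passed in fabp7a (0.47), s100b (0.54) and slc1a2b (0.70). The 1 lower gene of the list was the myelin gene mpz, at -1.05 (limma adjusted p = 0.000505). A further myelin gene, mbpa, did not pass (-0.21, limma adjusted p = 0.157). The part of neural content in the cyp19a1b values was not tested.

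Lists of other pathway genes were read against the same shares of all rows, 8.59% higher and 5.96% lower. Of the 26 further steroid enzymes 1 was higher, 2 were lower and 23 did not pass, with a median of -0.02. Neither these counts nor those of the next lists set the pathway apart from other rows. The gene that rose was hsd17b2, whose enzyme inactivates estradiol and testosterone. Its signal was 6.53 to 8.04 (median 7.16) in control trunks and 8.10 to 9.57 (median 8.96) in heat-exposed trunks. The groups did not overlap, as held for 0.616% of rows in the upward and 0.499% in the downward direction, and the difference was 1.71 ± 0.22 (SE, limma adjusted p = 9.79e-05). A gene that fell was hsd3b1, the step after cyp11a1, which read 8.13, 6.11, 7.20, 5.14, 9.49, 6.05, 8.41 and 9.11 in control trunks and 5.38 to 6.02 in heat-exposed trunks. Controls 1, 3, 5, 7 and 8 were again the highest, and the difference was -1.71 (limma adjusted p = 0.0199). All heat-exposed trunks and the other controls lay under the lower quartile of the trunk arrays, so the size of this fall is uncertain. The third call was hsd11b2, lower by a log2 difference of -0.90 (limma adjusted p = 0.00915).

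Of the cholesterol supply genes, scarb1, the lipoprotein receptor gene, fell most. It ran from 11.75 to 12.88 in control trunks and from 10.33 to 11.50 after heat. These ranges did not overlap, as held for 0.499% of rows in the downward direction. The scarb1 difference was -1.52 ± 0.18 (SE, limma adjusted p = 4.34e-05). The other gene of its list to pass was stard8, which encodes a protein with a lipid-binding domain like that of star, at -0.64 (limma adjusted p = 0.0436). The remaining 21 of 23 genes of that list did not pass, and the list's median was -0.07. Of the 29 control genes, whose median was 0.15, cebpb (0.88, limma adjusted p = 0.00209) and lhx9 (1.25, limma adjusted p = 0.0218) rose. Only nr0b1, which encodes a repressor of steroidogenic genes, fell, at -1.27 (limma adjusted p = 0.0170). The corticotropin receptor gene mc2r, a marker of interrenal tissue, read 0.26 and did not pass (limma adjusted p = 0.467). The mean of 7 interrenal and chromaffin markers was 7.16 to 7.86 in controls and 7.23 to 7.79 after heat. Within that list chga, a chromaffin granule gene, was higher at 1.65 (limma adjusted p = 0.00227), nr0b1 and hsd3b1 were lower, and 4 genes did not pass.

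**Figure D4:**
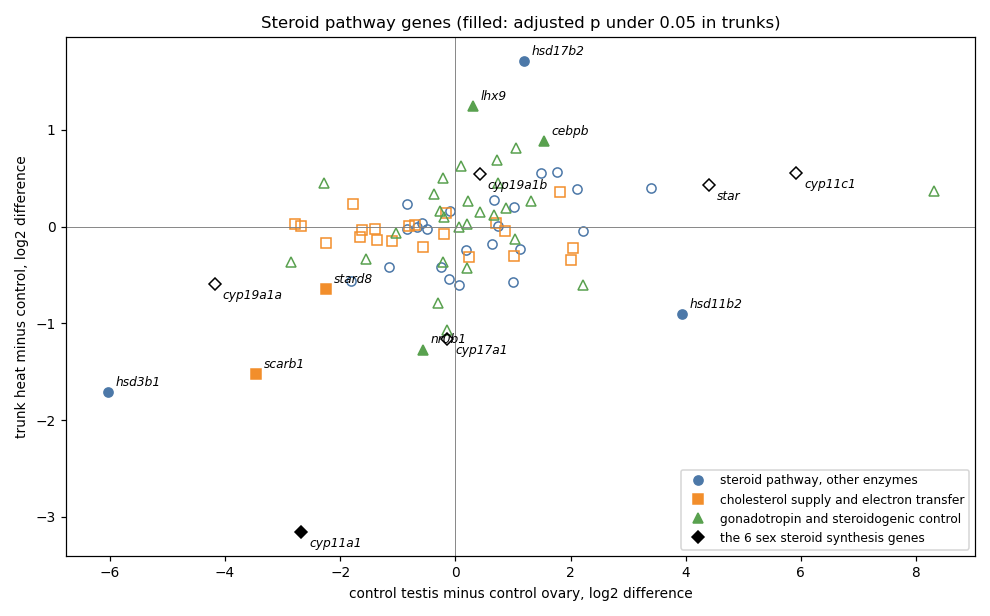
Log2 difference between heat-exposed and control trunks (vertical axis) against that between control testis and control ovary (horizontal axis) for the 6 genes and 3 lists of pathway genes, filled where the trunk difference passed at a limma adjusted p under 0.05. The lower left includes cyp11a1, hsd3b1 and scarb1, which were higher in ovary than in testis and lower in heat-exposed trunks.

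In adult testes no gene of the set passed the test for heat. By limma 0 of 6 passed, against 0.054% of all rows higher and 0.00953% lower. At an unadjusted p under 0.05 the counts were 0 of 6 genes and 3672 rows. The median difference was -0.17 over the 6 genes and 0.02 over all rows. Control and heat-exposed testes overlapped for every gene. Signals of star were 13.73 ± 0.25 (SD, n = 10) and 13.63 ± 0.24, a difference of -0.10 with an interval from -0.36 to 0.16. Thus a change of more than about 0.36 in star lies outside its interval. The same bound was wider for cyp11a1 (-0.36, interval -0.997 to 0.27) and for cyp17a1 (-0.23, interval -0.64 to 0.19).

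The androgen enzyme gene had 1 low testis. For cyp11c1 the heat-exposed testes lay between 11.95 and 12.76 except for testis 10, at 10.26, whereas controls lay between 12.17 and 13.01. The difference was -0.39 (interval -0.87 to 0.09, limma adjusted p = 0.536). Testis 10 also had the lowest cyp11a1 and cyp17a1 signals of its group, 8.27 and 11.15, and the highest cyp19a1b signal, 7.69, while its star signal of 13.66 lay inside the range of the others. Without it the cyp11c1 difference was -0.18. Aromatase signals in testes were near background in both groups, with differences of -0.05 for cyp19a1a and -0.12 for cyp19a1b (limma adjusted p = 0.933 and 0.926). None of the 26, 23 and 29 other pathway genes passed either.

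In adult ovaries the 4 heat-exposed samples did not behave as a group. By limma 0 of 6 genes passed, as 0% of all rows were higher and 0% lower. At an unadjusted p under 0.05 there were 3 genes of the set (star, cyp17a1 and cyp11c1) and 3334 rows, and the smallest adjusted p of any row was 0.106. The median difference was -0.70 over the 6 genes and -0.06 over all rows.

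Heat-exposed ovaries 1 to 4 read 7.54, 11.65, 7.29 and 12.29 for cyp11c1, where the highest control ovary was 6.76. All 4 lay above every control ovary, as held for 2.61% of all rows. Ovaries 2 and 4 were 33.3-fold and 51.8-fold over the control mean, while ovaries 1 and 3 were 1.93-fold and 1.61-fold over it. Control signals were near background, so these folds are uncertain. Ovary 4 lay inside the range of control testes, and ovary 2 lay under it. The group difference was 3.096 (interval 0.55 to 5.64, limma adjusted p = 0.434), and without ovaries 2 and 4 it was 0.82 (limma adjusted p = 0.787). For star the readings were 9.50, 13.10, 9.89 and 13.23 against 9.07 to 9.78 in controls. Again ovaries 2 and 4 were far above, at 13.7-fold and 15.01-fold over the control mean. The group difference was 2.11 (interval 0.13 to 4.09, limma adjusted p = 0.434) and 0.37 without those ovaries.

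The genes that were higher in control ovary than in control testis were low in the same pair of samples. For cyp19a1a the heat-exposed ovaries read 9.89, 6.11, 9.13 and 6.06, against 9.05 to 10.10 in controls. Ovaries 2 and 4 had signals inside the range of control testes, and ovaries 1 and 3 inside that of control ovaries. The group difference was -1.85 (interval -3.84 to 0.14, limma adjusted p = 0.434) and -0.14 without that pair. For cyp11a1 the readings were 12.13, 9.70, 13.31 and 11.04, with ovary 2 inside the testis range and ovary 4 between the ranges of the sexes. Its difference was -1.24 (interval -2.84 to 0.36, limma adjusted p = 0.435), and -0.06 without that pair.

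Neither cyp17a1 nor cyp19a1b followed that division. All 4 heat-exposed ovaries, at 11.71, 11.53, 11.81 and 11.61, lay under the lowest control ovary for cyp17a1, which was 11.86. The difference was small, at -0.60 (interval -1.17 to -0.02, limma adjusted p = 0.434), and without ovaries 2 and 4 it was -0.50. Of all rows, 3.37% lay wholly lower in heat-exposed ovaries and 2.61% wholly higher, so separation of 4 from 4 was frequent. Readings of cyp19a1b were 5.53, 5.16, 4.55 and 5.37, all near background, against 5.12 to 6.62 in controls.

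**Figure D5:**
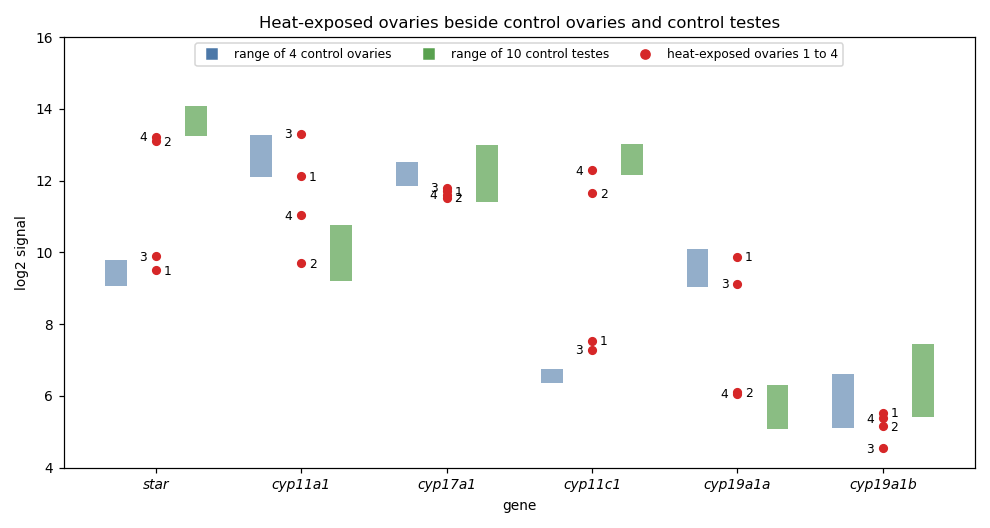
Log2 signal of the 6 genes in heat-exposed ovaries 1 to 4 (numbered points) beside the range of 4 control ovaries (left bars) and of 10 control testes (right bars). Ovaries 2 and 4 lie near or inside the testis range for star, cyp11c1 and cyp19a1a, and ovaries 1 and 3 lie near or inside the ovary range.

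Testis genes were high beside star and cyp11c1 in that pair. The Leydig cell hormone gene insl3 read 7.39, 14.71, 8.05 and 14.52 in heat-exposed ovaries 1 to 4, against 6.29 to 7.94 in control ovaries and 14.65 to 15.07 in control testes. The mean of 11 testis somatic markers was 9.23 and 9.52 in ovaries 2 and 4, against 7.85 and 8.03 in ovaries 1 and 3 and 7.55 to 7.71 in controls. In the same order, hsd11b2 read 8.94, 11.52, 8.63 and 10.66, and hsd3b1 read 12.62, 10.00, 12.65 and 10.47. Thus hsd11b2 was higher and hsd3b1 lower in ovaries 2 and 4 than in ovaries 1 and 3. Over all 4, the differences from control ovaries were 2.10 for hsd11b2 and -1.25 for hsd3b1 (limma adjusted p = 0.434 for both). Whether ovaries 1 and 3 alone differed from control ovaries in these genes was not tested. The part of testis tissue in the steroid gene values was not tested. None of the 26, 23 and 29 other pathway genes passed the heat comparison in ovaries.

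Differences between the sexes were also present after heat. Between heat-exposed testis and heat-exposed ovary, 3 of 6 genes were higher in testis and 2 lower, against 20.8% and 18.2% of all rows. The median difference was 0.67 over the 6 genes and 0.08 over all rows. The differences were 2.197 for star, 2.44 for cyp11c1, -1.80 for cyp11a1 and -2.38 for cyp19a1a (limma adjusted p between 0.000166 and 0.00385). Without ovaries 2 and 4 they were 3.93, 4.71, -2.97 and -4.10. Those ovaries lay nearest to testes in these genes, so leaving them out must widen the gaps. The fit pools 1 spread per gene over all gonad groups, though heat-exposed ovaries varied far more. The SD of star was 2.01 in heat-exposed ovaries and 0.24 in heat-exposed testes, and that of cyp11c1 was 2.65 and 0.70. The adjusted p-values with all arrays may therefore be too small. For cyp11a1 the call was lost without ovary 3, at -1.21 with a limma adjusted p of 0.0600. The third higher gene, cyp19a1b, at 1.12 (limma adjusted p = 0.0315), has signals near background, and without ovaries 2 and 4 it was 1.23 and did not pass (limma adjusted p = 0.0658). No difference was detected in cyp17a1, at 0.23 (interval -0.27 to 0.73, limma adjusted p = 0.487). Of the other pathway genes, 6 enzymes were higher in testis and 3 lower of 26, 3 cholesterol genes higher and 10 lower of 23, and 2 control genes higher and 2 lower of 29. Without ovaries 2 and 4 the counts were 9 and 5, 3 and 12, and 4 and 3. Calls over all 31475 rows also rose, from 12268 to 16084, so the larger counts do not set these lists apart.

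Whether heat acted differently in the sexes was tested by the difference of the heat effects, testis minus ovary. For cyp11c1 it was -3.49, with an interval from -5.19 to -1.78 and a limma adjusted p of 0.0392. This was the 1 lower call of the set with 0 higher, against 0.721% and 0.486% of all rows, and the medians were 0.53 over the 6 genes and 0.06 over all rows. The call was lost in 16 of 28 fits that left out 1 array, with adjusted p up to 0.155, while the difference stayed between -4.29 and -2.62 in all 28. Without ovaries 2 and 4 the difference was -1.21 (limma adjusted p = 0.514). The fit of all adult arrays pools 1 spread per gene here too. Its interval and adjusted p need the same caution. The values for star (-2.204, limma adjusted p = 0.0610) and cyp19a1a (1.79, limma adjusted p = 0.112) did not pass. Of the other pathway enzymes hsd11b2, the step after cyp11c1, passed at -2.74 (limma adjusted p = 0.0240), and without ovaries 2 and 4 it was -1.59 and did not pass (limma adjusted p = 0.360).

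Among testes the genes of the set varied together only in part. Of 15 pairs over 20 testes, with group means removed, star and cyp19a1a had a Pearson r of -0.64 and a Spearman coefficient of -0.65 (permutation test, p = 0.00436 and 0.00206, adjusted over 15 pairs 0.0386 and 0.0309). Leaving out the 2 testes farthest from the median of star gave an r of -0.82. As cyp19a1a is near background in testes, this pair needs caution. For cyp11a1 and cyp11c1, Pearson's r was 0.63 and Spearman's coefficient 0.58 (permutation test, p = 0.00515 and 0.00782, adjusted 0.0386 and 0.0586). That relation rested on a few arrays, as r was 0.28 without the 2 farthest testes and 0.43 without heat-exposed testis 10. The other 13 pairs did not pass by either measure.

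Genes whose signal ran most like each member are given as a description, from 14256 named rows after removal of group means. Over the 18 trunks, the highest r for cyp11a1 were those of fbxo43 (0.97), spdya (0.96) and calml4b (0.96), of which the first inhibits the cell cycle machinery in maturing eggs and the second activates cyclin-dependent kinases in meiosis. For cyp17a1 they were setd4 (0.91), stk31 (0.90) and btr18 (0.90). The spread of both genes was wider in control trunks (SD 1.95 and 1.49) than in heat-exposed ones (SD 0.35 and 0.63). The partners of star were mrap (0.87), aldoca (0.87) and ubr2 (0.85), and those of cyp11c1 were limk1a (0.89), slc12a7b (0.86) and hamp2 (0.86), the last now called hamp. Those of cyp19a1a were mettl6 (0.81), smpd2 (0.76) and nog1 (0.74), and those of cyp19a1b were prnprs3 (0.86), hbp1 (0.84) and dennd2c (0.82).

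Over the 20 testes the partners were others. The highest r for cyp11c1 were those of ift122 (0.95), a part of the transport machinery of cilia, pdhx (0.94), a part of pyruvate dehydrogenase, and ankle2 (0.93). Heat-exposed testis 10, at 10.26, lay farthest from its group mean for cyp11c1. For star the partners were sft2d1 (0.85), glra4a (0.77) and slc25a10 (0.77), for cyp11a1 fam26f (0.83), pef1 (0.76) and osr2 (0.73), and for cyp17a1 pcdh7b (0.79), mroh1 (0.78) and bmp1a (0.77). For cyp19a1a they were proc (0.71), dgcr14 (0.70) and kera (0.70), and for cyp19a1b ankrd22 (0.78), rnasen (0.77) and plch2a (0.76), where the members' own signals were near background.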

How the data were processed

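The deposited table holds 31475 rows and 46 single-colour NimbleGen arrays. Its log2 values were made by the authors with RMA, per the submitters' processing notes. RMA corrects background, normalizes arrays to a common distribution and summarizes probes, which can hide a shift of most genes. Neither its version nor the array's annotation is given in the sources used here, nor which arrays it was run on. The log base was taken from the range, 3.76 to 15.89. Per the labels' protocols, RNA was Trizol-extracted and amplified over the whole transcriptome. The labels give 8 control trunks where the design text gives 10 juveniles per group. No slide or scan labels were given, so no batch could be tested.

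The heat effects were estimated in limma 3.58.1 (R 4.3.3), separately for trunk, testis and ovary. The comparisons of the sexes and the difference of heat effects came from 1 fit of 28 adult arrays, with 1 pooled spread per gene. Tests were two-sided, without a filter, adjusted by Benjamini-Hochberg over all rows, with a threshold of 0.05. The limma fits of the heat effects and of control testis minus control ovary were tested on simulated data with equal spread in all groups. Unequal spread, the other comparisons and the correlations were not simulated. Correlations in testes used 100000 permutations within temperature groups. Members and lists were chosen with earlier results of these data known. Besides the 6 genes, the text names up to 4 passing genes per list and comparison by size, and the 3 rows most correlated with each gene. Other genes (mc2r and the glial genes in trunks, cyp17a2) were chosen after their values were seen. RefSeq GRCz12tu was used for names only. Alternatives were eBayes settings, array weights, a low-signal filter, scaling, all arrays in 1 model, a replicate block and leaving out arrays.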

Additional observations from a re-analysis of the deposited data

Results flagged for a closer look

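Dixon's criterion was applied to 36 sets of a gene and a group, where chance marks about 1 in 20. It marked 4 arrays that lay far from the rest of their group. Heat-exposed trunk 9 had a star signal of 8.67, with the next at 10.50. Control trunk 2 had a cyp11c1 signal of 7.78, with the next at 6.81. Heat-exposed testis 10 had a cyp11c1 signal of 10.26, with the next at 11.95. Control testis 1 had a cyp19a1a signal of 6.30, with the next at 5.68, both near background.

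The heat effect on cyp11c1 differed between testis and ovary by -3.49 in the test of the difference itself (limma adjusted p = 0.0392). That fit pools 1 spread over groups that varied unequally, so the adjusted p may be too small. Heat-exposed ovaries 2 and 4 had cyp11c1 signals of 11.65 and 12.29, and ovaries 1 and 3 had 7.54 and 7.29.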

How the results depend on the processing

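Of 1041 differences of the 6 genes under alternatives, 997 kept their direction and side of the threshold, 24 lost and 15 gained a call, and 5 reversed. In trunks the 1 call became 2 with all 46 arrays in 1 model (cyp17a1, limma adjusted p = 0.0255) and 1 to 2 when single trunks were left out. It became 4 when control trunks 2, 4 and 6 were left out, an alternative chosen after seeing the data, by the low oocyte signal that moves with cyp11a1, so it is no independent result. Then cyp11a1 was at -4.49, and cyp17a1 (-2.22), cyp19a1a (-1.03) and cyp19a1b (0.84) passed too. In ovaries 0 calls became 3 with all 46 arrays in 1 model, where the wide spread of heat-exposed ovaries is pooled with tighter groups. Between heat-exposed gonads 5 calls became 3 with a filter on low signal, as this left 4 of the 6 genes, and 3 to 5 without single arrays. With array weights cyp19a1b was 0.96 (limma adjusted p = 0.256). The difference of heat effects gave 1 call, 0 with array weights (cyp11c1 -2.60), 2 with all 46 arrays, 0 without heat-exposed ovaries 2 and 4, and 0 to 3 without single arrays. One reversed value was -0.30 for cyp11a1 in that difference without those ovaries. That exclusion was also chosen after seeing the data, so it is no independent result. In testes without single arrays, cyp19a1a ran from -0.097 to 0.0385 and reversed in 3 fits. There cyp19a1b ran from -0.274 to 0.00323 and reversed in 1 fit. None of the reversed values passed. The cause of these changes was otherwise not tested.

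Rows called changed more. In testes 20 became 54 with array weights, 7 centred, 8 quantile normalized, 30 filtered, 102 in 1 model and 3 with the replicate block. In ovaries 0 became 4, 4869 and 8 with weights, in 1 model and without ovaries 2 and 4. The 380 of the difference of heat effects became 20, 2508 and 36. The 4579 of the trunk became 2863 without heat-exposed trunks 1, 2 and 10. Deviations of same-numbered arrays were weakly correlated (r over 0.1 in 1 of 8 trunk, 2 of 10 testis and 2 of 4 ovary pairs, 0.15 at most). The main fits used no pairing by number, though a low r cannot exclude one. The replicate block left 1, 0 and 0 calls of the 6 genes in trunk, testis and ovary. With 4 ovaries per group, and signals near background for both aromatases outside their tissue, smaller changes were not detectable.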
